A study of Mus musculus with 5 samples.

Results

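The transcripts of 9 leukocyte integrin genes were examined in 5 Surface-seq libraries of EL4 cells, an established mouse lymphoma line of the T lineage that grows in suspension. The genes, Itgal, Itgb2, Itga4, Itgb1, Itgb7, Itga6, Itgae, Itgav and Itgb3, were chosen by name for their place in leukocyte adhesion, with earlier results of these data known, and all 9 were found by their GENCODE identifiers among the 55385 genes listed in each count table. Surface-seq sequences the RNA that stays with plasma membrane after that membrane has been wrapped around polymer nanoparticles. In variation A (3 libraries, A1, A2 and A3) the RNA was extracted with phenol and chloroform from the washed particles, end-repaired and made into a library, so RNA from either side of the membrane could enter. In variation B (2 libraries, B1 and B2) the 3′ adaptor was ligated directly on the intact particles, which favours RNA that faces outwards, and the RNA was purified afterwards. The same line supplied all 5 libraries and the labels name no treatment. No sample of whole-cell RNA was analysed here, and the membrane side sampled and the library chemistry differ together and cannot be told apart. Nothing in the labels says that the libraries came from separate cultures, so the p-values measure only the spread between these libraries.

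Integrins are adhesion receptors made of an alpha chain and a beta chain, each of which crosses the membrane once and is translated on the endoplasmic reticulum. Leukocytes carry a characteristic set of them. The chain encoded by Itgal pairs with that of Itgb2 to form LFA-1, which binds ICAM ligands and holds lymphocytes to other cells. The Itgb7 chain pairs with those of Itga4 (gut homing, through the ligand MAdCAM) and Itgae (retention in epithelia, through E-cadherin). The Itgb1 chain is the common partner of many alpha chains, among them those of Itga4 and Itga6, a laminin receptor, while the Itgav chain pairs with those of Itgb3, Itgb1 and others in receptors for vitronectin and fibronectin. The counts here are of RNA fragments on annotated exons and say nothing of the receptor proteins themselves.

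The coding sequences of the beta chains are related, and the authors' counting tool by default drops reads with several alignments. The 3′ coding ends are therefore shown to let the reader see how far these transcripts can be told apart. This end encodes the short tail inside the cell that talin and kindlin bind, and it lies within the last 2 coding exons of each gene. The final 150 coding bases of the principal transcript, stop codon included, are given from GENCODE M21 on GRCm38, from chr10:77564718-77565240 (plus strand) for Itgb2, chr15:102216160-102216513 (minus strand) for Itgb7, chr8:128726103-128732088 (plus strand) for Itgb1 and chr11:104665549-104667145 (plus strand) for Itgb3. Capitals mark the 34 bases that are the same in all 4 sequences after alignment.

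Itgb2: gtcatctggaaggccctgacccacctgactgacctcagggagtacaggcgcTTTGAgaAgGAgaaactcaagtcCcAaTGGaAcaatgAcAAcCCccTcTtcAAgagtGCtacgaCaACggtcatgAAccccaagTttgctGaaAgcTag

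Itgb7: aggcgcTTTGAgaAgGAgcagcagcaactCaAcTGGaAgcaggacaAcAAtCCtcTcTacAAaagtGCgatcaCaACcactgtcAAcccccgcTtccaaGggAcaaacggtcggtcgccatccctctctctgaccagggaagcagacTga

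Itgb1: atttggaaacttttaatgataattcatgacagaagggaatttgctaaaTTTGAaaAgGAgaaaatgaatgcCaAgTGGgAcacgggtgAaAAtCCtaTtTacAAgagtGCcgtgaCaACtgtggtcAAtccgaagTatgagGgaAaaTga

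Itgb3: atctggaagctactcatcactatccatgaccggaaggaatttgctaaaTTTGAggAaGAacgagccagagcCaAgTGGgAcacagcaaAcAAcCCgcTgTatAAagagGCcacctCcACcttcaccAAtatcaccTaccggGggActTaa

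Between pairs of these tails the identity ran from 51.7% (Itgb2 and Itgb3) to 62.9% (Itgb2 and Itgb7). Over whole coding sequences of all 9 genes, the longest run shared by any pair was 26 bases, GGGAGTACAGGCGCTTTGAGAAGGAG, held by Itgb2 and Itgb7 at the start of the conserved block. Every other pair shared at most 20 bases. Windows of 30 bases were then sought in all annotated transcripts of other genes, on both strands. None of the 30-base windows of Itgal, Itgb1, Itgb7 or Itgae occurred elsewhere. The share of windows found elsewhere was 13.4% for Itga4, mostly in Cerkl on the other strand, 6.94% for Itga6 and 2.52% for Itgb2, each in a single other gene (Gm29397 and Gm14699), and at most 0.521% for Itgav and Itgb3. Counts of Itga4 are therefore the least certain of the set, and its exons overlap those of Cerkl over 8.04% of their length. Itgav exons overlap those of Gm13684, on the other strand, over 5.90%, and the counting did not use strand.

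The libraries held 1187117 to 4502174 counts in variation A and 21862003 to 22980172 in variation B. Ribosomal RNA genes took 49.98% to 53.99% of the counts in variation A and 22.96% to 24.2% in variation B, and levels on library totals were higher in variation B for most genes. A1 stood apart within variation A, with 39.4% of its counts on protein-coding genes against 22.6% in A2 and 22.0% in A3, and a chi-square per degree of freedom across genes of 107.7 with A2 and 70.4 with A3, against 9.49 between A2 and A3. A level is given as CPM, a count divided by the size of its library and scaled in the usual way. Library size was taken both as the total and as the TMM effective library size, which sets the bulk of genes level between libraries: in edgeR's test of 10287 genes the median log2 fold change of variation B over variation A was 0.05 with TMM and 1.50 with library totals. Of 13 T lymphocyte markers, 12 or 13 had counts in each library, with Thy1, Ptprc and Cd3d the highest by mean CPM. Their summed CPM on library totals was 414 to 735 in variation A and 1964 to 1990 in variation B. With TMM the median log2 fold change of the 11 tested was 0.21. At an edgeR adjusted p under 0.05 and a fold above 2, Cd3e (1.13) and Cd3g (2.00) were higher and Trbc2 (-1.17) lower, beside 11% and 12.4% of all genes. These calls held in 11 of 18, 15 of 18 and 5 of 17 alternative fits. Cd8a had at most 9 counts in any library, and Cd4 had at most 9. Outside the T lineage, Ms4a1, Adgre1, Mpo and Pf4 were at 0 in all 5 libraries. The 5 platelet markers summed to at most 1.39 CPM on library totals, all of it on Itga2b (11 counts in B1 and 32 in B2), and the 4 erythroid markers to at most 0.274. The 5 markers of stroma and endothelium summed to 10.7 to 22.2 in variation A and 16.4 to 23.5 in variation B, nearly all of it on Pecam1 (49, 46, 13, 355 and 537 counts in library order). Summed CPM on library totals of the 5 B lymphocyte markers spanned 28.2 to 41.7 for variation A, and for variation B 230.3 to 245.5, nearly all of it on Ighm. With TMM the log2 fold change was 1.39 for Ighm and -0.94 for Pecam1, against 2.86 and 0.48 with library totals, so the direction for Pecam1 turned with the scaling. At the thresholds used for the T markers, Ighm was also called higher (edgeR adjusted p = 0.00988), beside 11% of all genes, and Pecam1 was not called. The call of Ighm held in 13 of 17 alternative fits. The 7 myeloid markers summed to 0 to 2.67 in variation A and 4.57 to 5.79 in variation B, where Lyz2 had 73 counts in B1 and 133 in B2 against 0 in variation A. Lyz2 was called higher as well (edgeR adjusted p = 0.0365), in 10 of 15 alternative fits too, and no fold is given against a variation at 0. The part of these non-T markers in the integrin values was not tested.

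**Figure D1:**
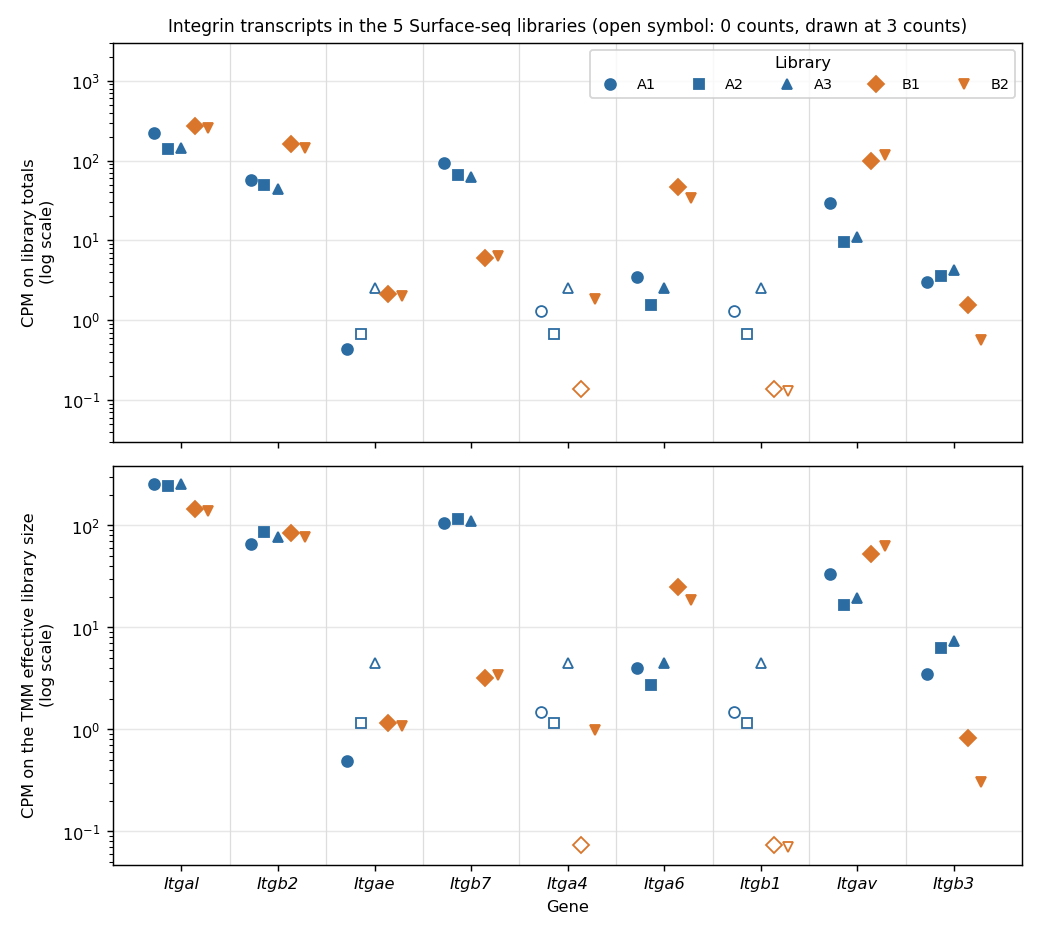
CPM of the 9 integrin genes in each library on a log scale, on library totals (upper panel) and on the TMM effective library size (lower panel); filled symbols are libraries with counts, and open symbols are libraries with 0 counts, drawn at the level of 3 counts. Itgb7 and Itgb3 lie lower, and Itga6 and Itgav higher, in both variation B libraries under either scaling, while the order of the variations for Itgal turns with the scaling.

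Itgal (ENSMUSG00000030830.18, chromosome 7 from 127296260 to 127335138, plus strand), the alpha chain of LFA-1, was the most counted integrin of every library. The variation A counts were 513 (A1), 621 (A2) and 173 (A3), and those of variation B were 5939 (B1) and 5915 (B2). As CPM on library totals these are 223, 138 and 146 in variation A and 272 and 257 in variation B, so both variation B libraries lay above all of variation A. A bulk level pools many cells, so the share of cells with a transcript and its amount per cell cannot be told apart. On the TMM effective library size the order was the opposite, at 251 ± 8.01 in variation A (SD, n = 3) and 142 ± 3.49 in variation B (SD, n = 2). Fold changes, as log2 of variation B over variation A, come from the edgeR fit over all genes, with an approximate SE and a Benjamini-Hochberg adjusted p, and a gene was called at an adjusted p under 0.05 with a fold above 2. For Itgal the value was -0.82 with TMM (SE 0.28, edgeR adjusted p = 0.0687) and 0.65 with library totals. Itgal was called under none of the 18 alternatives, in which the adjusted p (edgeR or DESeq2) ran from 0.00496 to 0.886 and the fold stayed under 2.

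Itgb2 (ENSMUSG00000000290.13, chromosome 10 from 77530252 to 77565708, plus strand), the beta chain of LFA-1, was counted 133 times in A1, 221 in A2 and 52 in A3. In variation B the counts were 3495 and 3293, for B1 and B2. On the TMM effective library size its CPM was 76.3 ± 10.0 in variation A (SD, n = 3) and 81.6 ± 5.20 in variation B (SD, n = 2), and the libraries of the variations overlapped. The log2 fold change was 0.10 (SE 0.27, edgeR adjusted p = 0.813). With library totals it was 1.59 and was called (edgeR adjusted p = 0.009), while the median over all genes was then 1.50, and with upper-quartile factors it was -0.03. The LFA-1 chains together held most of the counts on the 9 genes, 68.5% to 70.1% of them in variation A and 71.3% to 73.6% in variation B.

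Itgb7 (ENSMUSG00000001281.10, chromosome 15 from 102215995 to 102231944, minus strand) fell most among the integrin genes tested. On library totals the A1 level was 93.0 CPM (214 counts), the A2 level 66.6 (300 counts) and the A3 level 63.2 (75 counts). The B1 level was 5.99 (131 counts) and the B2 level 6.31 (145 counts), although those libraries were several times deeper. Every variation A library lay above both variation B libraries, and the means differed 12.1-fold. On the TMM effective library size the levels were 111 ± 5.28 (SD, n = 3) and 3.31 ± 0.166 (SD, n = 2), a 33.6-fold difference. The log2 fold change was -5.07 (SE 0.33, edgeR adjusted p = 0.00028), lower than for all but 1.59% of the genes tested. Itgb7 passed as lower under all 18 alternatives, with a log2 fold change between -5.20 and -3.59 and an adjusted p of at most 0.00673 (edgeR and DESeq2).

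Itgae (ENSMUSG00000005947.11, chromosome 11 from 73090583 to 73147446, plus strand), which encodes a partner of the Itgb7 chain, was scarce. A single count fell on it in A1 and 0 in A2 and A3, while B1 held 47 and B2 held 46, which are 2.15 and 2.00 CPM on library totals. A count of 0 allows up to 3 counts, which would be 0.666 CPM in A2 and 2.53 in A3. On library totals the A2 limit lay below variation B and the A3 limit did not. On the TMM effective library size even the A2 limit, 1.17, was no lower than the variation B levels of 1.15 and 1.09. In A2 or A3 taken singly, a difference in Itgae was therefore not detectable at this depth on that scale. Counts pooled over the variation A libraries were not tested. The filter on low counts kept Itgae out of the main test. Itgae was tested in 5 alternatives and called in none (edgeR adjusted p from 0.108 to 0.566). Its log2 fold change ran from 1.72 to 2.69 in those that kept A1, and no fold is given without A1, where variation A is at 0. Itga4 (ENSMUSG00000027009.18, chromosome 2 from 79255426 to 79333123, plus strand), the partner of Itgb7 in gut homing, had 0 counts in A1, A2, A3 and B1, and 42 counts in B2. The variation B libraries differed from each other in Itga4: its 0 counts in B1 allow a CPM of up to 0.137, against 1.83 in B2 (95% Wilson confidence interval 1.35 to 2.47). Itga4 did not pass the filter on low counts. Without that filter it was tested and not called (edgeR adjusted p = 0.47), and no fold is given against a variation at 0.

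Itgb1 (ENSMUSG00000025809.15, chromosome 8 from 128685654 to 128733200, plus strand), the beta chain with the most alpha partners, had 0 counts in all 5 libraries. In B2, with 22980172 counts, 0 counts allow a CPM of up to 0.131, and in B1 up to 0.137. No other gene in the tables overlaps its exons, and none of its 3786 windows of 30 bases occurred in a transcript of another gene. That search covers annotated transcripts only. Whether reads of Itgb1 were left out at alignment or counting was not tested, so the limits above are for counted reads. Itga6 (ENSMUSG00000027111.16, chromosome 2 from 71745616 to 71858416, plus strand), whose chain pairs with that of Itgb1 in a laminin receptor, had counts in every library. Those of variation A numbered 8 (A1), 7 (A2) and 3 (A3), and those of variation B 1012 (B1) and 778 (B2). On library totals its CPM was 2.52 ± 0.961 in variation A (SD, n = 3) and 40.1 ± 8.79 in variation B (SD, n = 2), a 15.9-fold difference, and on the TMM effective library size the difference was 5.81-fold. Both variation B libraries lay above all variation A libraries under either scaling. The log2 fold change was 2.62 (SE 0.40, edgeR adjusted p = 0.00504), above 96.7% of the genes tested. The call of Itga6 was lost under 1 of 18 alternatives, with B1 left out, at a log2 fold change of 2.37 and an adjusted p of 0.06 from edgeR. Over all 18 the adjusted p ran from 5.3e-05 to 0.06 (edgeR and DESeq2).

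Itgav (ENSMUSG00000027087.11, chromosome 2 from 83724397 to 83806916, plus strand), the alpha chain of the vitronectin receptor, stood at 29.1 CPM on library totals in A1 (67 counts), 9.55 in A2 (43 counts) and 10.95 in A3 (13 counts). Variation B stood at 99.1 (B1, 2167 counts) and 117 (B2, 2687 counts). A1 lay above the other variation A libraries, and both variation B libraries lay above A1. The log2 fold change was 1.32 (SE 0.36, edgeR adjusted p = 0.0313). The call was lost with A2, A3, B1 or B2 left out (log2 fold changes of 1.15, 1.29, 1.44 and 1.18), with a trend of counts with gene length removed (0.93), with the replicate block (1.29) and with a test against a fold of 2. With A2, A3, B1 or B2 left out the share of all genes called in either direction also fell, from 23.4% to between 2.86% and 7.44%, and with A1 left out it was 35.8%. The direction was kept in all 18 alternatives, and the adjusted p ran from 7.22e-05 to 0.318 (edgeR and DESeq2). Itgb3 (ENSMUSG00000020689.4, chromosome 11 from 104608000 to 104670476, plus strand), a beta partner of the Itgav chain, moved the opposite way. Its counts were low, at 7 (A1), 16 (A2) and 5 (A3) in variation A and 34 (B1) and 13 (B2) in variation B. On library totals these are 3.04, 3.55 and 4.21 CPM in variation A and 1.56 and 0.566 in variation B, with every variation A library above both variation B libraries. The log2 fold change was -3.26 (SE 0.76, edgeR adjusted p = 0.0202). The call of Itgb3 was lost with A2, A3, B1 or B2 left out (log2 fold changes of -3.09, -3.03, -4.12 and -2.72) with library totals (-1.73) and with a test against a fold of 2, while the direction was kept in all 17 alternatives that tested it. The adjusted p then ran from 0.000204 to 0.133 (edgeR and DESeq2).

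**Figure D2:**
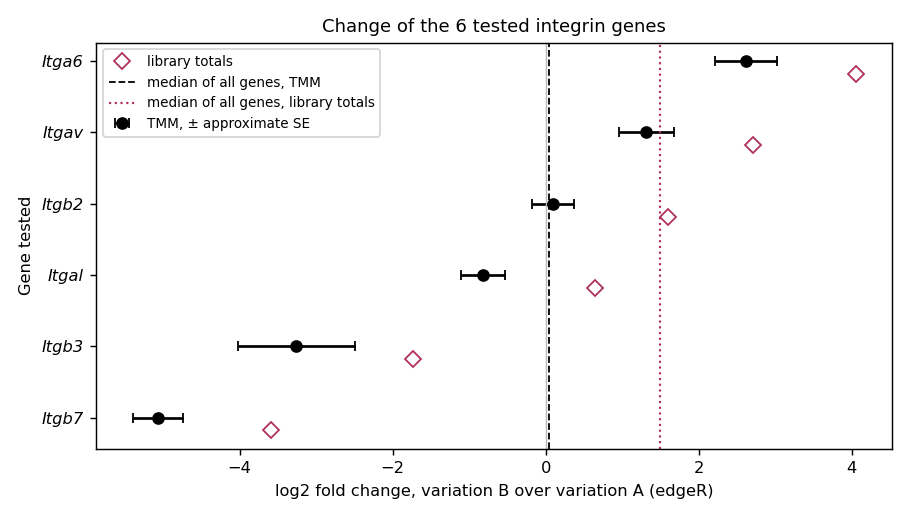
Log2 fold change of variation B over variation A for the 6 integrin genes that passed the filter on low counts; points are the TMM values with their approximate standard error, open diamonds are the values on library totals, and vertical lines mark the medians of all genes tested. Itga6 at 2.62 and Itgb7 at -5.07 lie at the ends of the set, and Itgal is the gene with a different sign under library totals.

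Over the whole set, 6 of the 9 genes passed the filter on low counts. Of these, 2 (Itga6 and Itgav) were higher in variation B and 2 (Itgb7 and Itgb3) were lower, in the edgeR fit. Among all 10287 genes tested, 11% were called higher and 12.4% lower. With library totals these shares were 55.1% and 2.93%, and 3 of the 6 genes (Itgb2, Itga6 and Itgav) were called higher and 1 (Itgb7) lower. Of the genes called higher with TMM, only Itga6 was still called with the replicate block, the length trend removed, both of these, or a test against a fold of 2, where 7.4%, 9.75%, 5.7% and 2.81% of all genes were. Of those called lower, only Itgb7 was still called with counts thinned to equal library totals (where Itgb3 did not pass the filter, and protein-coding counts stayed unequal) and with a test against a fold of 2, where 12.2% and 3.77% of all genes were. The median log2 fold change of the 6 integrin genes was -0.36, beside 0.05 for all genes, and it averages over changes in opposite directions. Among the 6 tested genes, on the TMM effective library size, both variation B libraries lay above all of variation A for Itga6 and Itgav, and below for Itgal, Itgb7 and Itgb3. Over all genes tested, 31.2% lay above in this way and 26.7% below. On library totals Itgal, Itgb2, Itga6 and Itgav lay above and Itgb7 and Itgb3 below, beside 75% and 5.06% of all genes. Of the genes not tested, Itgae lay above on both scales, from 0 or 1 count in each variation A library. A level above 2 CPM on library totals was reached by 6 genes in A1, A3, B1 and B2 and by 5 in A2, where Itga6 was at 1.55, beside 35.8% to 43.6% of protein-coding genes.

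The sum over the 9 genes did not show these shifts. Their summed CPM on library totals was 410 (A1), 268 (A2) and 270.4 (A3) in variation A and 587 (B1) and 562 (B2) in variation B, 1.82-fold higher. On the protein-coding total the ratio turned to 0.778, and on the TMM effective library size to 0.657, from 471 ± 4.01 in variation A (SD, n = 3) and 309 ± 5.09 in variation B (SD, n = 2). The division of the integrin counts among the genes does not depend on the scaling. Itgb7 held 22.7% to 24.8% of them in variation A and 1.02% to 1.12% in variation B. Itgav held between 3.56% and 7.10% in variation A and between 16.9% and 20.8% in variation B. Itga6 held under 1% in each variation A library (0.579% to 0.935%) and 6.02% to 7.89% in variation B. Itgal held 51.4% to 54.4% in variation A and 45.8% to 46.3% in variation B.

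**Figure D3:**
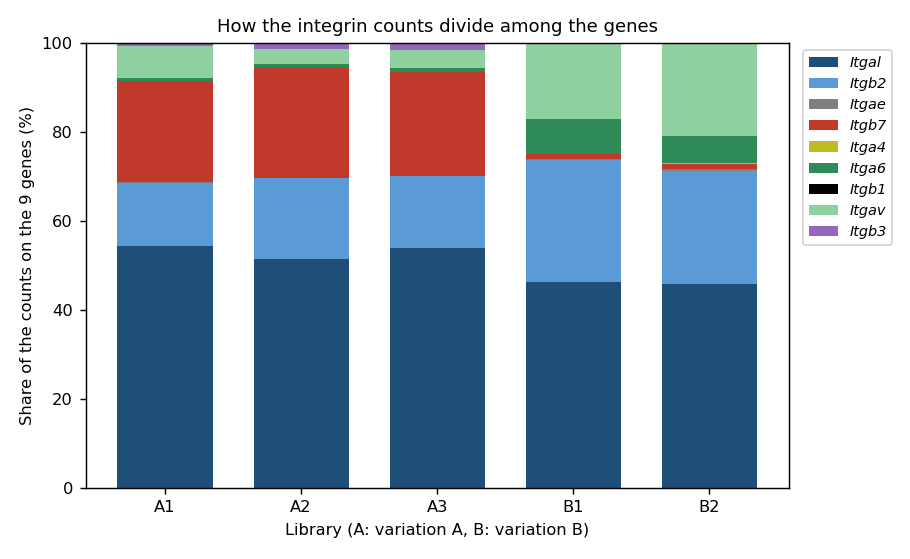
Stacked bars of the percent of counts on the 9 integrin genes that each gene held, by library. Itgb7 takes about the same share in the 3 variation A libraries and a thin band of 1.02% to 1.12% in variation B, where Itgav, Itga6 and Itgb2 take larger shares.

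Because the chains work in pairs, the share of a pair's counts that fell on the beta chain was compared within each library, a measure that needs no scaling between libraries. Of 7 pairs examined, 4 gave shares that varied and could be tested. For Itgal and Itgb2 the A1 share on Itgb2 was 20.6% (95% Wilson interval 17.6 to 23.9), the A2 share 26.2% (23.4 to 29.3) and the A3 share 23.1% (18.1 to 29.0). The B1 share was 37.0% (36.1 to 38.0) and the B2 share 35.8% (34.8 to 36.7). The means differed by 13.1 percentage points (two-sided exact permutation p = 0.1, adjusted p = 0.2 over 4 pairs), and 0.1 is the smallest p that 3 libraries against 2 allow. More of the LFA-1 counts thus lay on the beta chain in each library of variation B than in any of variation A, also per kilobase of exon (39.5% ± 3.78 and 55.2% ± 0.970, SD, n = 3 and n = 2).

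For Itgae and Itgb7 nearly all counts of variation A fell on Itgb7, at 99.5% in A1 and 100% in A2 and A3. The B1 share was 73.6% (66.7 to 79.5) and the B2 share 75.9% (69.4 to 81.4). Variation B minus variation A was -25.1 percentage points (two-sided exact permutation p = 0.1, adjusted p = 0.2). For Itgav and Itgb3 the A1 share on Itgb3 was 9.46% (4.66 to 18.3), the A2 share 27.1% (17.4 to 39.6) and the A3 share 27.8% (12.5 to 50.9). The B1 share was 1.54% (1.11 to 2.15) and the B2 share 0.481% (0.282 to 0.822). The variations did not overlap, and variation B minus variation A was -20.4 percentage points (two-sided exact permutation p = 0.2, adjusted p = 0.267). For Itga4 and Itgb7 the share on Itgb7 was 100% in every library except B2, at 77.5% (two-sided exact permutation p = 0.4, adjusted p = 0.4). With Itgb1 as the beta chain the share was 0% wherever the pair had counts. In B1 the partners Itga6 and Itgav had 1012 and 2167 counts, beside 0 on Itgb1, which bounds its share of the pair with Itgav at 0.177% (upper Wilson limit). No molecular identifiers are described for these libraries and reads need not be separate molecules, so the intervals and the limits set by 3 counts cover counting error only.

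**Figure D4:**
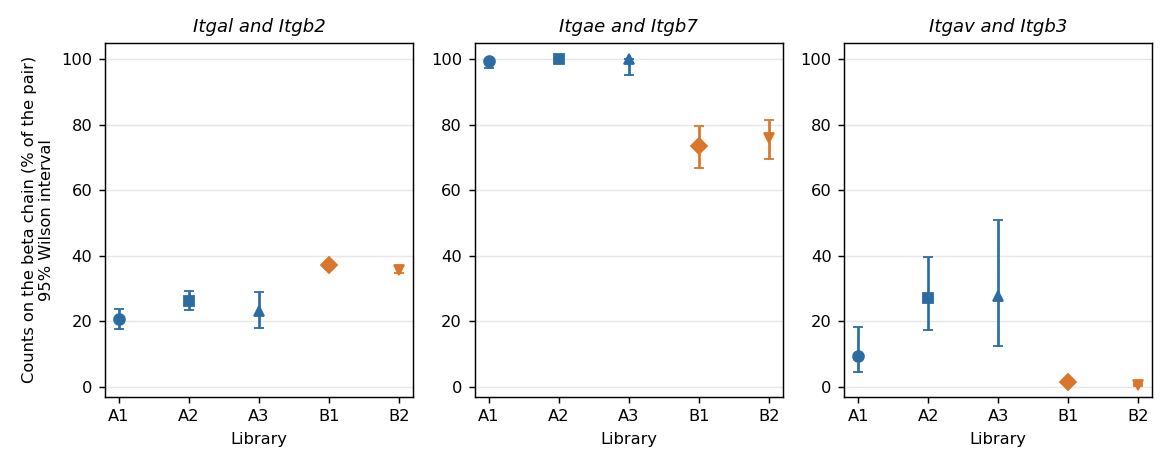
Percent of the counts of a chain pair that fell on the beta chain, by library, with 95% Wilson confidence intervals. The variation A libraries (blue) and variation B libraries (orange) do not overlap in any of the 3 pairs drawn, with the share on Itgb2 higher and the shares on Itgb7 and Itgb3 lower in variation B. The other pair tested, Itga4 and Itgb7, overlapped and is not drawn.

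Levels of different genes were compared per kilobase of exon, on library totals. In A2 and A3 the highest level was that of Itgb7, at 24.1 and 22.8 CPM per kilobase, just above Itgal, and in A1 Itgal (33.9) and Itgb7 (33.6) changed places. These differ by less than the spread between the variation A libraries (25.7 ± 7.15 for Itgal and 26.8 ± 5.89 for Itgb7, SD, n = 3). Itgb2 came next at 16.5 ± 2.32, then Itgav at 1.54 ± 1.02, Itgb3 at 0.611 ± 0.0994 and Itga6 at 0.276 ± 0.105. In variation B Itgb2 led at 49.7 ± 3.84, ahead of Itgal at 40.3 ± 1.54, Itgav at 10.1 ± 1.17, Itga6 at 4.38 ± 0.962 and Itgb7 at 2.22 ± 0.0811 (SD, n = 2). Itgae followed at 0.453 ± 0.0229 and Itgb3 at 0.180 ± 0.119, and Itga4 and Itgb3 changed order between B1 and B2. Itgb7 thus went from the top of the order, level with Itgal, to the fifth place, in both libraries.

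Gene length moved with the change between variations. In edgeR's test the median log2 fold change rose with exon length over the quartiles of all genes tested, from -0.24 below 2804 bases, through -0.11 and 0.08, to 0.35 from 6960 bases upwards. Itga6 (9142 bases) and Itgav (10744 bases) were in the longest quartile, where 15.5% of genes were called higher, and Itgb7 (2770 bases) was in the shortest, where 16.9% were called lower. With the length trend removed Itga6 stayed at 2.32 and Itgb7 at -4.88, both past the test, and Itgav was not called. The part of gene length in these values was not tested beyond this. Itgb3, with 5901 bases, was in the third quartile, whose median was 0.08.

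The other genes of the pathway were described from lists of integrin subunits, of activators and adaptors, of inhibitors and of ligands, also drawn up with earlier results known. Of 17 other integrin subunits, 2 (Itga2 and Itgb5) had 0 counts in all libraries and only Itga10, with 2 to 86 counts in a library, passed the filter. Its log2 fold change was 0.18 (edgeR adjusted p = 0.863). Itgam and Itgax, the myeloid partners of the Itgb2 chain, had at most 20 counts and 1 count in any library, and Itgad had 8 counts in B1 alone. Itga11, with 1 to 97 counts, and Itgb4, with 2 to 18, came next by mean CPM.

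Of 34 genes that activate integrins or tie them to the actin skeleton, 28 were tested, 2 were higher (7.14%) and 4 lower (14.3%) in variation B, near the 11% and 12.4% of all genes, and the median log2 fold change was -0.07 beside 0.05 for all genes. Tln1, encoding talin, which binds the beta tails, had the highest mean CPM over the 5 libraries, at 184 to 288 CPM on library totals in variation A and 313 to 319 in variation B. Its log2 fold change was -0.97 (edgeR adjusted p = 0.0448), under a fold of 2, and turned to 0.50 with library totals. Rasgrp1, second by mean CPM, was at 0.33 and was not called. In variation B the level of Stk4 was above that of Tln1. Fermt3, the kindlin of blood cells, fell by 1.23 on the log2 scale (adjusted p = 0.0326, edgeR), from a TMM CPM of 59.5, 100.4 and 104 in variation A to 34.6 and 39.8 in variation B. Rasgrp2, an exchange factor for Rap GTPases, fell by 1.55, Rapgef1, another such factor, by 1.13, and Pxn, the adaptor paxillin, by 2.34. Stk4, a kinase that acts with Rassf5 downstream of Rap, rose by 1.14 and Lims1, a partner of integrin-linked kinase, by 1.84. These are TMM values: with library totals Fermt3 (0.30) and Rapgef1 (0.42) changed sign, Rasgrp2 was at -0.05 and not called, and 16 genes of the list were called higher and 0 lower, where 55.1% and 2.93% of all genes were. With A2, A3, B1 or B2 left out none of the 6 genes called was called any longer, in fits that called 1.32% to 3.86% of all genes in a direction. All 6 calls were also lost with a test against a fold of 2, and those of Fermt3, Rapgef1 and Stk4 with the replicate block. The number called lower was 2 without a filter on low counts, where 3.5% of all genes were. It was 7 with the length trend removed, where 13.4% were, and 2 with the replicate block as well, where 7.69% were. With A1 left out 8 genes of the list were higher and 5 lower, where 20.8% and 15% of all genes were. Ilk itself was at 0 counts in all 5 libraries. Whether reads of Ilk were left out at alignment or counting was not tested.

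Of the 9 inhibitors described here, 7 were tested, 0 were higher in edgeR's test and 2 were lower, beside 11% and 12.4% of all genes, with a median log2 fold change of -0.31. At an unadjusted p under 0.05, 0 were higher as well. The count of 0 became 3 with library totals, where 55.1% of all genes were higher, and 1 with A1 left out, where 20.8% were. With DESeq2 the count stayed 0, where 11.7% of all genes were higher. Sipa1, which switches off Rap, fell by 3.16 (adjusted p = 0.00332, edgeR), and this call held in all 18 alternatives. Dok1, an adaptor that binds beta tails, fell by 1.62. The call of Dok1 was lost in 10 of 18 alternatives: with A2, A3, B1 or B2 left out, with library totals, with the replicate block alone or with the length trend removed, without a filter on low counts, at equal library totals and with a test against a fold of 2. Flna, a filamin that competes with talin for the beta tails and the most counted of the list, had a log2 fold change of 0.28 and was not called, nor was Cytip (0.69). Of 16 ligands, 4 had 0 counts throughout, among them Vcam1, Madcam1 and Fn1, and 6 were tested, with a median log2 fold change of -1.06. Of these 6, 0 were called higher and 1 lower (16.7%), near the 11% and 12.4% of all genes. The ligand called in this fit was Lamc1, a laminin chain, at -1.35 (adjusted p = 0.0237, edgeR). DESeq2 called 0 ligands higher and 3 lower, where 11.7% and 15% of all genes were. With library totals 2 were called higher and 0 lower, where 55.1% and 2.93% of all genes were. The call was lost in 9 of 18 alternatives: with A2, A3, B1 or B2 left out, with library totals (log2 fold change 0.17), with the replicate block, without a filter on low counts, at equal library totals and with a test against a fold of 2. The most counted ligand, Tgfb1, whose latent form integrins bind, had a log2 fold change of -1.28 (edgeR adjusted p = 0.0638), which turned to 0.29 with library totals, and was called lower in 3 of 18 alternatives (DESeq2, equal library totals and A1 left out). Lamb1, another laminin chain, was at -2.41 (edgeR adjusted p = 0.0753). Its TMM CPM in A2, 3.11, lay below variation B (4.62 to 5.78) while A1 and A3 were at 31.2 and 56.3, and it was called lower in 2 of 18 alternatives (DESeq2 and A2 left out). Icam1, the ligand of LFA-1, had 21, 40 and 11 counts in variation A and 307 and 331 in the deeper libraries of variation B. Its log2 fold change was -0.85 with TMM (edgeR adjusted p = 0.12, not called) and turned to 0.65 with library totals.

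**Figure D5:**
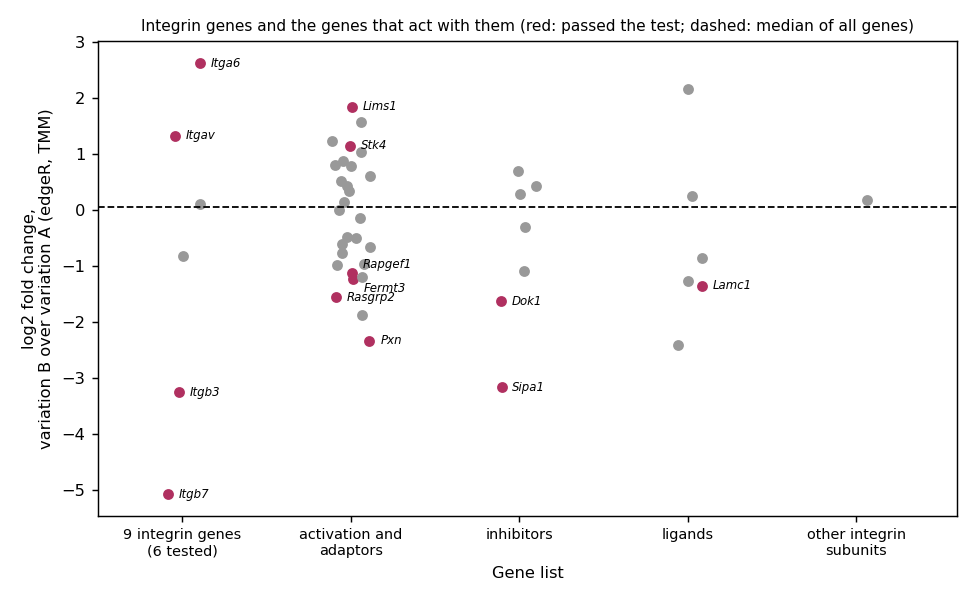
Log2 fold change of variation B over variation A (edgeR, TMM) of every tested gene of the integrin set and of 4 lists of genes that act with integrins; red points passed the test and the dashed line is the median of all genes. Itgb7 at -5.07 and Itga6 at 2.62 are the lowest and the highest points of the plot.

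The genes whose profile over the 5 libraries was most like that of Itgal were Ezr, Urb2 and Pik3cd, at a Euclidean distance of 0.0787, 0.0978 and 0.1 on the log2 scale of TMM CPM centred on each gene. The comparison covered 10286 genes, and 363 of them lay within 0.5, so a profile of 5 libraries is shared by many genes.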

How the data were processed

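Per the file headers and the submitters' processing notes, the authors used Trimmomatic 0.36 for trimming, STAR 2.7.3a for alignment to GRCm38 and featureCounts 1.6.4 for counting on GENCODE M24 exons, with strand ignored. By default featureCounts drops reads that align to several places or that cover more than 1 gene. The deposited values are raw counts per gene, 1 table per library. CPM was computed on library totals and on the TMM effective library size. The variations were tested in edgeR 4.0.16 (R 4.3.3; filterByExpr, TMM, glmQLFTest), with Benjamini-Hochberg adjustment over 10287 genes and calls at an adjusted p under 0.05 and a fold above 2. DESeq2 1.42.0, the study's tool, served as an alternative. SEs were derived from the F statistic. Identifiers gave GENCODE M21 symbols for 55144 of 55385 genes. Beta tails were aligned with mafft 7.526. Same-variation libraries differed by more than sampling noise. In simulated counts of 9962 genes, edgeR recovered 62.8% of 199 genes changed 4-fold, and 8.09% of its calls were false. The false share was 12.6% with the replicate block, 14.2% with DESeq2 and 8.27% with the length trend removed. Apart from the changed genes, all simulated libraries shared the same mean profile, without the rRNA and length differences between the variations. These shares need not hold for the real counts. The integrin genes and lists were chosen with earlier results of these data known. Named genes were all 9 integrins and, from each list of pathway genes, genes called and the 3 with the highest mean CPM. From the marker lists the genes called were named, and other markers were named without a fixed rule. 1 further inhibitor and 1 further marker were left out of the lists and of every count on them, and are not reported here. Itgam, Itgax, Itgad, Itga2, Itgb5, Ilk, Icam1, Vcam1, Madcam1 and Fn1 were named after their values were seen. The 3 genes most like Itgal came from the smallest distances. Alternatives covered normalization, filter, tool, replicate block, length trend, depth, gene classes, the tested fold and each library left out.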

Additional observations from a re-analysis of the deposited data

How the results depend on the processing

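The number of integrin genes called higher (2) was 1 with the length trend removed, with the replicate block, with both of these, and with the test against a fold change of 2, and it ran from 0 to 2 with each library left out. The number called lower (2) was 1 with library totals, at equal library totals (1187117 counts, where Itgb3 was not tested) and with the test against a fold change of 2, and it ran from 1 to 2 with each library left out. Leaving out a variation B library leaves 1 sample in that group, which is then assumed to vary like the others. With library totals Itgal turned to 0.65, and with upper-quartile factors Itgb2 turned to -0.0333. The ratio of the summed level of the 9 genes, 1.82 on library totals, was 0.778 on the protein-coding total, 0.657 on the TMM effective library size and 1.15 without rRNA and mitochondrial genes. The difference in the share on Itgb7 of the pair with Itga4, -11.2 percentage points, ran from -22.5 to 0 with each library left out, 0 being the value without B2. Nothing in the labels ties libraries of 1 number together, and the correlation of their deviations across genes was -0.10 for number 1 and -0.0291 for number 2. With the replicate block Itgav had a log2 fold change of 1.29 (adjusted p = 0.0767, edgeR) and was not called, and the calls of Itga6, Itgb7 and Itgb3 were kept. The cause of each change was not tested. Depth limits the genes with few counts in variation A: Itga6, Itgae, Itga4, Itgb1 and Itgb3 had 0 to 16 counts in each of its libraries, and Itgav had 13 in A3.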
